A study of Mus musculus with 10 samples.

Results

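The genes described here are 39 that carry a cell from G1 into S phase and copy its DNA, among them G1/S cyclins and kinases, E2F and RB factors, origin licensing proteins, the MCM helicase, replication fork enzymes and enzymes that supply deoxynucleotides. They were chosen by symbol, with earlier results of these data known. All 39 were found among the 54446 gene rows of the count table and passed the low-count filter that left 15181 genes. Polyadenylated RNA had been sequenced from primary smooth muscle cells of the mouse aorta, freed with collagenase and grown to passage 2. The WT group came from Wild type mice. The WWv group came from KitW/WV mice, compound heterozygotes that hold a W and a Wv copy of Kit. There were 5 mice and 5 libraries for each genotype, although the labels do not tie each library to a mouse. Both groups had the same digestion and culture, and no other allele or agent was named. The sources used here give no age, sex or strain. Kit encodes c-Kit, the receptor for stem cell factor. The W product lacks its membrane-spanning segment, and the Wv product has a weakened kinase. Both alleles are in every cell of the animal and are not limited to smooth muscle. The comparison asked which transcripts differ in vascular smooth muscle without normal c-Kit signalling. A gene is said to have risen or fallen in WWv when its adjusted p was under 0.05 in the edgeR quasi-likelihood test with Benjamini-Hochberg adjustment over all tested genes.

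Entry into S phase starts when cyclin D with CDK4 or CDK6, then cyclin E with CDK2, phosphorylates RB proteins and frees E2F factors, which switch on the genes of DNA synthesis. Replication origins are prepared in G1, when ORC, CDC6 and CDT1 load the ring of Mcm2 to Mcm7 onto DNA. In S phase CDC45, GINS and MCM10 turn that ring into a moving helicase, followed by the polymerases, the PCNA clamp and its loader. Smooth muscle cells of a healthy artery rarely divide, but they re-enter the cycle in culture and after injury to the vessel.

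The promoters were searched for the E2F motif as TTTCCCGC, TTTCGCGC, TTTGCCGC or TTTGGCGC. Both strands were read from 250 bases before to 50 bases after the RefSeq start (GRCm38.p6). The genes were chosen by symbol and not by sequence, but many are known for E2F control, so the choice was not independent of this motif. On opposite strands TTTCGCGC and TTTGGCGC can overlap. Of the 31 genes with a promoter entry 14 (45.2%) held a match in at least 1 of their windows, against 575 of 17492 protein coding genes (3.3%). The CCAAT box, which binds NF-Y, was in 19 of 31 (61.3%, all coding genes 42.3%). The CHR element of late cell cycle genes (TTTGAA or TTCGAA, both strands) was in 7 of 31 (22.6%, all coding genes 20.2%). Among 23 mitosis genes with an entry the shares were 4.3% for E2F and 78.3% for CHR. No entry was found for Ccne2, Ccnd2, Rb1, Gmnn, Mcm4, Gins1, Gins2 and Pole.

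The upstream matches outside every annotated exon are printed here because E2F control is what these genes are best known for. Upstream is counted from the RefSeq start, and the Cdc6 stretch lies within the annotated span of that gene (98907801 to 98923940), outside its exons. Each stretch runs 5′ to 3′ on the strand of its gene, with the match in capitals. In Mcm5 and Mcm6 matches on opposite strands overlap and share their central bases.
Mcm5 (chr8:75109330-75109393, plus): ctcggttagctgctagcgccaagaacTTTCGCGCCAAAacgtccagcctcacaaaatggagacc
Mcm6 (chr1:128359778-128359841, minus): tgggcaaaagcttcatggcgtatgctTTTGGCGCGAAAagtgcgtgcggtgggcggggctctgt
Mcm6, match nearer the start (chr1:128359719-128359778, minus): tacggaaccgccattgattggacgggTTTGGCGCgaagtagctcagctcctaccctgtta
Rbl1 (chr2:157204535-157204578, minus): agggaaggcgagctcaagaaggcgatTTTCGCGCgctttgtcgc
E2f3 (chr13:29986064-29986100, minus): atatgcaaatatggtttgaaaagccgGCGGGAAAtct
E2f7 (chr10:110745215-110745274, plus): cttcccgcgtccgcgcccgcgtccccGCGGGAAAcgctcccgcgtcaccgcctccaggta
Cdc6 (chr11:98907987-98908046, plus): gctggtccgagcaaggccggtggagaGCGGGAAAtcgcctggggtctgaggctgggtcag
Pola1 (chrX:93632260-93632319, minus): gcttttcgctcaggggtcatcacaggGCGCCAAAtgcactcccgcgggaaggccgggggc
The 14 genes with a match had a median log2 fold change of 0.49 between WWv and WT (0.18 to 0.79), and 9 of them rose. The 17 with an entry and no match had a median of 0.44 (−0.07 to 0.85), and 11 of them rose. The members with and without a match covered much the same range of changes. Only these exact letters near the RefSeq start were searched, so a gene without a match need not lack an E2F site. Whether E2F sites went with the changes was not tested.

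Library totals ranged from 42040255 to 53863661 counts, so that 1 CPM (a count per 1000000 of the TMM-scaled library) stood for 41.6 to 52.5 counts. Depth did not separate the groups (two-sided exact permutation p = 0.944, n = 5 each). The TMM scaling factor did (mean 1.03 in WT and 0.971 in WWv, exact permutation p = 0.00794). Kit stood at 3.19, 4.91, 4.07, 4.40 and 4.02 CPM in WT 1 to 5 and at 2.09, 0.928, 1.71, 3.01 and 2.25 CPM in WWv 1 to 5. It was lower in every WWv library than in every WT library (log2 fold change −1.04 ± 0.25 SE, edgeR adjusted p = 0.0122), although these alleles change the protein and need not change the transcript level. The 8 smooth muscle markers summed to 9949 to 13011 CPM in WT and 16755 to 20141 CPM in WWv, and 6 of the 8 rose. The 8 fibroblast markers summed to 5913 to 12125 CPM in WT and 7269 to 9580 CPM in WWv, and 4 of them fell. Most of that sum was Col1a1, at 8902 ± 2196 CPM in WT and 8411 ± 922.8 CPM in WWv (adjusted p = 0.744). Those that fell were Lum (−4.02), Dpt (−2.005), Dcn (−1.76) and Pdgfra (−0.64). Endothelial markers summed to 56.8 to 329 CPM in WT and 91.2 to 210 CPM in WWv, and of 7 tested 0 passed (median log2 fold change 0.19). Without WT 2, 4 of these 7 rose (median 0.95). Macrophage markers summed to 20.7 to 41.4 and 20.7 to 25.7 CPM, with 4 of 8 under 1 CPM in all libraries. The 8 lymphocyte markers were all under 1 CPM in all libraries, and Cd3e and Cd8a were at 0. The part of other cell types in the results below was not tested.

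One WT library, WT 2, stood apart from the other 4 WT libraries in the genes described here. It was the highest WT library for 36 of the 39 genes, whereas it was the highest for 33.1% of all tested genes. For 18 genes it lay above all WWv libraries, for 10 within the WWv range and for 11 below it. It also had the lowest sum of fibroblast markers (5913 CPM) and the highest sum of endothelial markers (329 CPM) of the WT libraries. Lum stood at 2.63 CPM in WT 2, at 23.2 to 49.6 CPM in the 4 other WT libraries and at no more than 3.23 CPM in any WWv library. Dcn stood at 21.2 CPM in WT 2, at 93.0 to 184 CPM in those 4 and at 22.7 to 59.5 CPM in WWv. In both markers WT 2 was nearer to WWv than to the other WT libraries, as in the mean of the 39 genes. Not all markers showed this. Pdgfra in WT 2 (284.3 CPM) lay among the other WT libraries (250.1 to 297.4 CPM). That was above every WWv library (at most 258.9 CPM). Col1a1 in WT 2 (5475 CPM) was below every other library. The smooth muscle marker sum of WT 2 (10324 CPM) lay in the WT range and below the WWv range. The part of these markers in the result was not tested. The mean log2 CPM of the 39 genes was 4.97 in WT 2. It was 4.33 to 4.50 across WT 1, 3, 4 and 5, and 4.92 to 5.03 across WWv. Results are therefore given with all libraries and without WT 2.

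**Figure D1:**
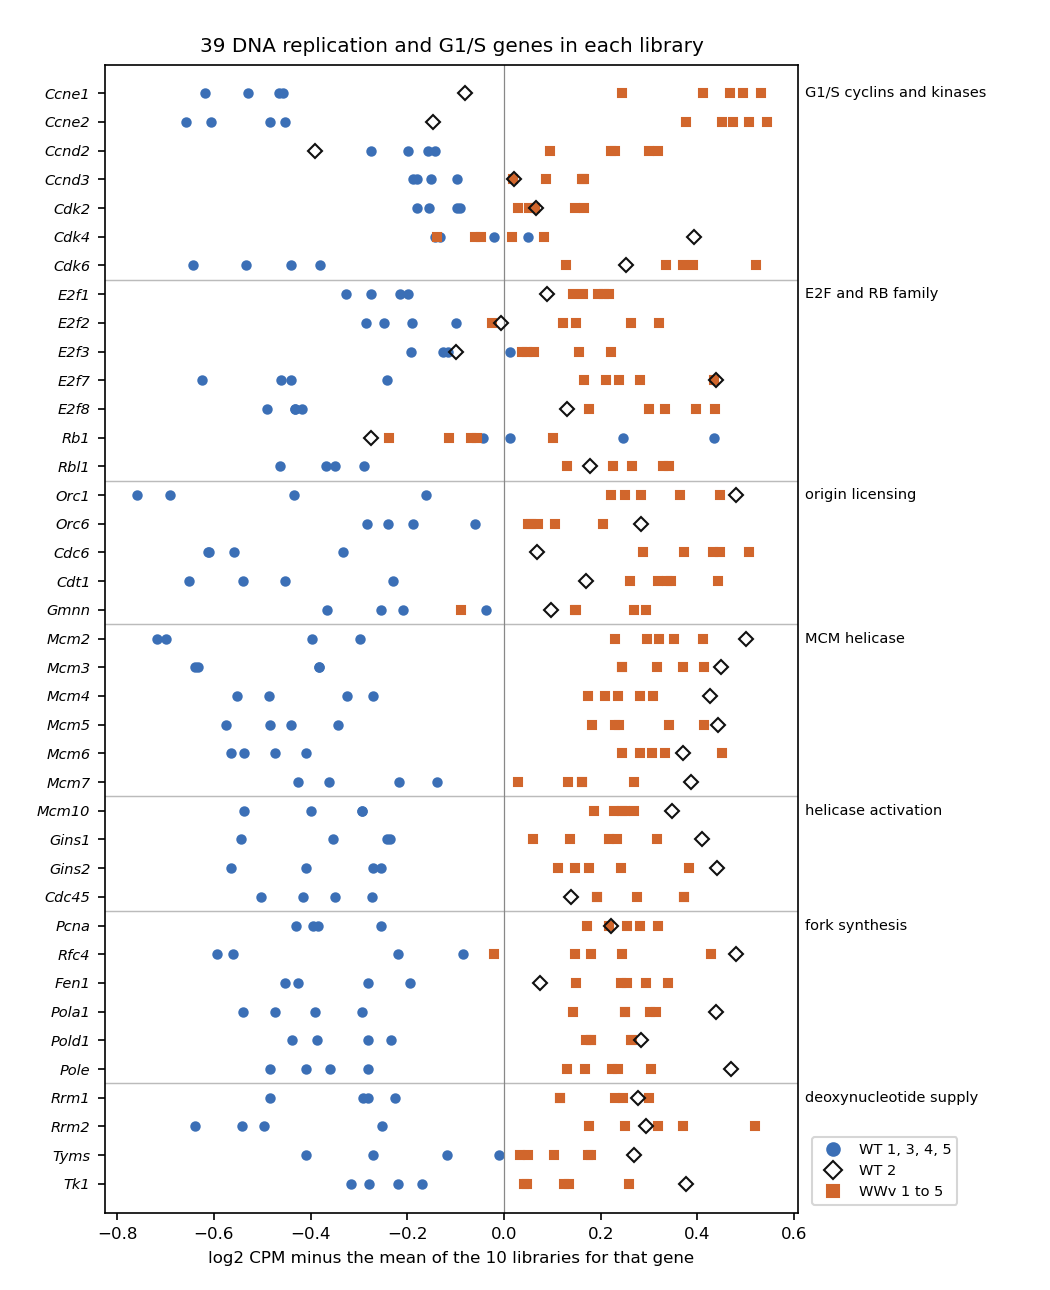
Level of each of the 39 genes in each library (x axis, log2 CPM minus the mean of the 10 libraries for that gene; rows are genes grouped by role; circles are WT 1, 3, 4 and 5, open diamonds WT 2 and squares WWv). The open diamonds lie among or to the right of the squares for 28 genes and to their left for 11.

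DNA replication and G1/S genes were higher in WWv than in WT cells. Of the 39 genes 23 rose, led by the cyclin E genes Ccne2 (1.90-fold) and Ccne1 (1.80-fold) and the helicase loader gene Cdc6 (1.73-fold). Of all tested genes 12.8% were higher and 15.4% lower at the same threshold. None of the 39 fell by edgeR, DESeq2 or limma-voom, and 0 were lower at an unadjusted p under 0.05. The median log2 fold change was 0.44, against −0.01 over all tested genes. It was 0.27 in 89 other genes of the pathway, described below. The 39 genes and the 89 were chosen with earlier results of these data known. In 10 of the 39 every WWv library lay above every WT library, as in 8.04% of tested genes, and 0 of the 39 showed the reverse, as did 7.81%. In a bulk sample more cells in S phase and more RNA per cell cannot be told apart.

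The count of rising genes moved with single libraries. It was 37 without WT 2 (22.7% of all tested genes higher in that fit), and 15 without WT 1, WT 3, WWv 2 or WWv 4 (9.46%, 9.12%, 8.34% and 8.35% of tested genes higher). It was 16 without WT 4, WT 5, WWv 3 or WWv 5 (9.56%, 9.86%, 8.56% and 9.65%) and 17 without WWv 1 (11.7%). Without the low-count filter 19 rose (5.05% of 29503 genes). Without WT 2 the median change was 0.60, and 36 of the 39 genes had every WWv library above every remaining WT library, as did 17.6% of the genes tested in that fit. When libraries were scaled by their totals alone, without TMM factors, 14 rose (6.48% of tested genes higher) and 0 fell, in a fit where 983 genes in all were higher and 3599 lower (21.5% of calls higher, 45.4% with TMM). Past the threshold in all 10 leave-one-out fits were 15 genes: Ccne1, Ccne2, Ccnd2, Ccnd3, Cdk6, E2f1, E2f3, E2f8, Rbl1, Cdc6, Cdt1, Cdc45, Pcna, Fen1 and Rrm2. The other 8, named with their roles below, lost the call without at least 4 single libraries. The median coefficient of variation of the 39 genes was 21.9% in WT, 7.45% in WT without WT 2 and 5.67% in WWv.

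**Figure D2:**
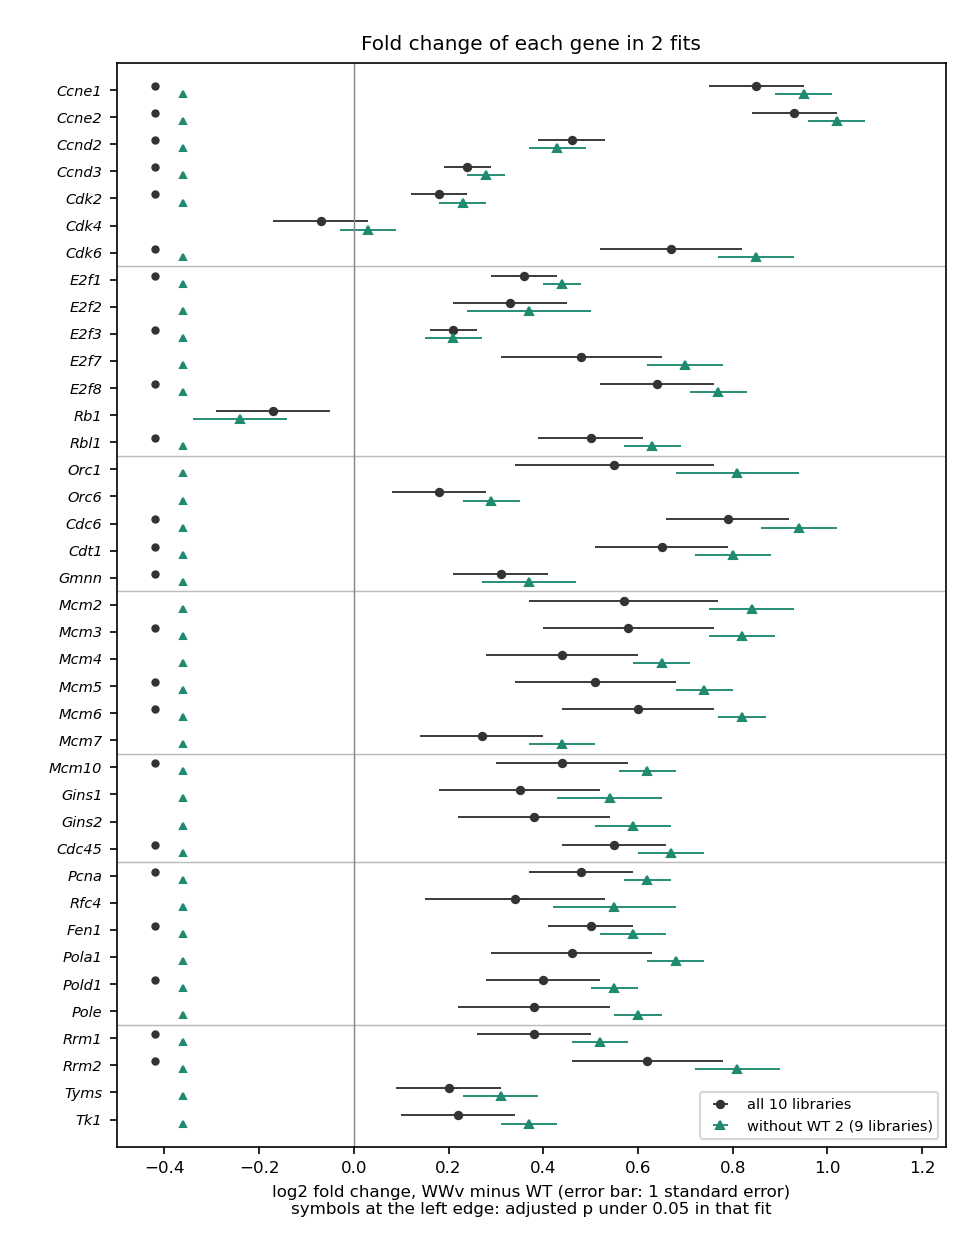
Log2 fold change of each gene, WWv minus WT (x axis, with 1 standard error), with all 10 libraries (circles) and without WT 2 (triangles), rows as genes grouped by role. Symbols at the left edge mark the 23 and 37 genes past the threshold in the respective fit.

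Cyclin E genes had the largest changes of the 39. Cyclin E activates CDK2 at the G1/S boundary. Ccne1 (ENSMUSG00000002068.16, chromosome 7, 38097984 to 38107534, mm10) stood at 20.7, 27.02, 20.8, 18.6 and 19.8 CPM in WT 1 to 5 and at 33.8, 41.3, 37.97, 40.2 and 39.5 CPM in WWv 1 to 5. The groups did not overlap, and WT 2 was the closest of WT to the WWv range (log2 fold change 0.85 ± 0.10 SE, adjusted p = 0.000446). Ccne2 (ENSMUSG00000028212.16, chromosome 4, 11191351 to 11204779) stood at 13.5, 17.04, 13.8, 12.4 and 11.96 CPM in WT and at 24.5, 26.2, 25.8, 26.8 and 27.5 CPM in WWv. Here too the groups did not overlap (0.93 ± 0.09, adjusted p = 0.000247), although Ints8 on the opposite strand shares 17.42% of its exon bases and the strand setting of the counting is not known. Without WT 2 the changes were 0.95 and 1.02. Per kilobase of exon Ccne1 was the more abundant, by 2.04 ± 0.088 times in WT (SD, n = 5) and 1.93 ± 0.097 times in WWv (n = 5), so that both genes kept nearly the same proportion.

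The D cyclins pair with CDK4 and CDK6 and link growth signals to the cycle. Ccnd2 (ENSMUSG00000000184.12, chromosome 6, 127125162 to 127152193) was the most abundant of the 39 genes per kilobase of exon, with 157 ± 10.9 CPM per kb in WT. Its level was 1574, 1326, 1558, 1436 and 1514 CPM in WT and 2139, 2027, 1855, 2038 and 2167 CPM in WWv, without overlap. WT 2 was here the lowest of the 10 libraries, whereas it was the highest WT library for 36 of the 39 genes. Ccnd2 rose by 0.46 ± 0.07 (adjusted p = 0.00118), and Ccnd3 rose by 0.24 ± 0.05 (adjusted p = 0.00811) from 113 ± 6.94 to 133 ± 5.96 CPM. Without WT 2 these changes were 0.43 and 0.28. With library size only Ccnd3 was not past the threshold (0.15, adjusted p = 0.0878).

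The third D cyclin gene, Ccnd1, is not among the 39 and was looked at after its values were seen. It stood at 136, 581, 163, 78.5 and 80.8 CPM in WT and at 482, 313, 242, 349 and 189 CPM in WWv. WT 2 was the highest of all libraries, with 581 CPM against 78.5 to 163 CPM in the other WT libraries. Ccnd1 did not pass with all libraries (0.60 ± 0.53, adjusted p = 0.413) and passed without WT 2 (1.46, adjusted p = 0.0023).

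Of the kinase genes Cdk6 rose, Cdk2 rose slightly and Cdk4 did not pass. Cdk6 stood at 18.0, 31.03, 20.03, 19.2 and 16.7 CPM in WT and at 32.9, 37.4, 28.5, 33.7 and 34.2 CPM in WWv. The overlap came from WT 2 alone, which lay above WWv 3 (0.67 ± 0.15, adjusted p = 0.00954). Cdk4 stood at 142, 190, 149, 132 and 131 CPM in WT and at 153, 140, 139, 146 and 131 CPM in WWv. Apart from WT 2, which was the highest library, both groups covered nearly the same range (−0.07 ± 0.10, adjusted p = 0.605, and 0.03, adjusted p = 0.657, without WT 2). Tspan31 on the opposite strand shares 19.73% of the Cdk4 exon bases. Cdk2, the partner of cyclin E, went from 25.2 ± 1.73 to 28.6 ± 1.20 CPM (0.18 ± 0.06, adjusted p = 0.0324). Its call was lost when any 1 library other than WT 2 was left out (0.16 to 0.19, adjusted p 0.0636 to 0.0986).

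**Figure D3:**
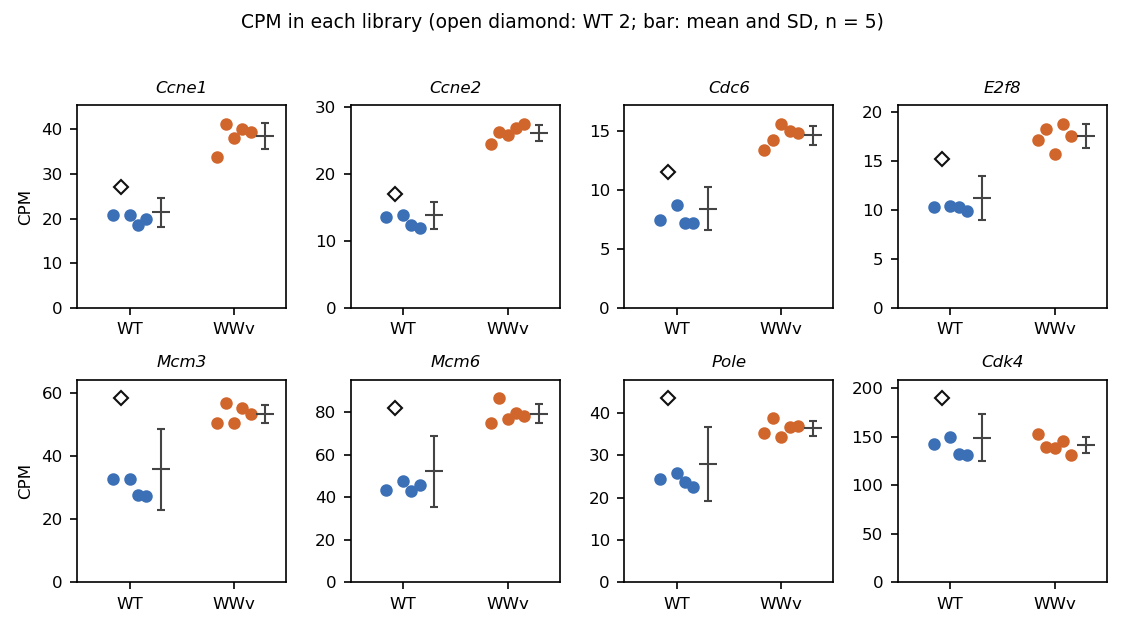
CPM (y axis) of 8 genes in each library, with WT 2 as an open diamond and bars for the mean and SD of 5 libraries. For Ccne1, Ccne2, Cdc6 and E2f8 all WT libraries lie below WWv, for Mcm3, Mcm6 and Pole WT 2 lies among or above WWv, and for Cdk4 the groups coincide apart from WT 2.

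Of the 5 E2F genes, 3 rose: the activator genes E2f1 and E2f3 and the repressor gene E2f8. E2f1, an activator of S phase genes (ENSMUSG00000027490.17, chromosome 2, 154559407 to 154569892), stood at 36.7, 44.8, 36.3, 33.6 and 34.8 CPM in WT and at 48.96, 48.6, 46.5, 48.2 and 47.2 CPM in WWv. The groups did not overlap (0.36 ± 0.07, adjusted p = 0.00494). E2f8, an atypical E2F that represses the same targets late in S phase (ENSMUSG00000046179.17, chromosome 7, 48866429 to 48881596), stood at 10.3, 15.2, 10.4, 10.3 and 9.89 CPM in WT and at 17.1, 18.3, 15.7, 18.8 and 17.5 CPM in WWv. WT 2 was just below the lowest WWv library (0.64 ± 0.12, adjusted p = 0.00339), and Gm2788 on the opposite strand shares 11.21% of the E2f8 exon bases. E2f3, another activator, rose by 0.21 ± 0.05 (adjusted p = 0.0155) and was not past the threshold with library size only (0.12, adjusted p = 0.109).

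E2f7, the second atypical repressor, did not pass with all libraries and did so without WT 2. It stood at 14.2, 26.1, 16.3, 12.5 and 14.0 CPM in WT and at 21.6, 26.02, 22.7, 23.4 and 22.3 CPM in WWv. WT 2 was the highest of all libraries and the other WT libraries were the 4 lowest (0.48 ± 0.17, adjusted p = 0.0598, and 0.70, adjusted p = 9.41e-05, without WT 2). E2f2, the scarcest of the 39 genes at 1.27 ± 0.103 CPM in WT and 1.60 ± 0.147 CPM in WWv, also passed only without WT 2 among the leave-one-out fits (0.33, adjusted p = 0.0676, and 0.37, adjusted p = 0.0395).

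The RB family genes differed from each other. Rbl1, which encodes the E2F-regulated pocket protein p107, rose by 0.50 ± 0.11 (adjusted p = 0.00825) from 15.6 ± 3.00 to 22.1 ± 1.29 CPM, with WT 2 at 20.9 CPM within the WWv range. Rb1, which encodes the retinoblastoma protein, stood at 35.9, 30.6, 37.3, 49.98 and 43.9 CPM in WT and at 31.4, 35.3, 35.6, 34.2 and 39.7 CPM in WWv. The groups overlapped with WT 2 the lowest of all, and the change did not pass (−0.17 ± 0.12, adjusted p = 0.311, and −0.24, adjusted p = 0.0625, without WT 2).

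Licensing genes were higher for the loaders Cdc6 and Cdt1. CDC6 and CDT1 bring the MCM ring to ORC-bound origins. Cdc6 (ENSMUSG00000017499.15, chromosome 11, 98907801 to 98923940) stood at 7.45, 11.5, 8.71, 7.18 and 7.19 CPM in WT and at 13.4, 14.2, 15.6, 14.96 and 14.8 CPM in WWv. All WWv libraries were above all WT libraries (0.79 ± 0.13, adjusted p = 0.00176). Cdt1 (ENSMUSG00000006585.3, chromosome 8, 122568015 to 122573554) stood at 8.55, 13.98, 10.6, 9.08 and 7.92 CPM in WT and at 14.9, 16.9, 15.8, 15.5 and 15.7 CPM in WWv. WT 2 came within 1 CPM of the lowest WWv library without reaching it (0.65 ± 0.14, adjusted p = 0.00644). Without WT 2 the changes of Cdc6 and Cdt1 were 0.94 and 0.80.

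Gmnn encodes geminin, the inhibitor of CDT1 that keeps origins from firing again. It went from 7.45 ± 0.963 to 9.21 ± 0.929 CPM (0.31 ± 0.10, adjusted p = 0.0491). The call was lost without any 1 of WT 1, 3, 4 or 5 or WWv 2 to 5 (0.26 to 0.33, adjusted p 0.0631 to 0.128). The ORC subunit genes Orc1 and Orc6 did not pass with all libraries. Orc1, the subunit whose level follows the cycle, stood at 3.77, 7.11, 4.56, 3.16 and 3.01 CPM in WT and at 6.56, 5.94, 6.06, 6.95 and 6.20 CPM in WWv. WT 2 was the highest library and the other WT libraries lay below all of WWv (0.55 ± 0.21, adjusted p = 0.0708, and 0.81, adjusted p = 0.000518, without WT 2). Orc6 changed by 0.29 without WT 2 (adjusted p = 0.00212), from 0.18 (adjusted p = 0.194) with it. Of the other ORC genes, named after their values were seen, Orc2 rose by 0.28 (adjusted p = 0.0374) and Orc4 by 0.20 (adjusted p = 0.0216), while Orc3 and Orc5 did not pass. Orc2 lost its call without any 1 library other than WT 2 (adjusted p 0.0691 to 0.104) and Orc4 without WT 1 or 5 or WWv 4 or 5 (0.0513 to 0.0665).

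The calls among the MCM genes moved with single libraries. Mcm2 to Mcm7 encode the 6 subunits of the ring that unwinds DNA. With all libraries 3 of the 6 rose (Mcm3, Mcm5 and Mcm6), without WT 2 all 6 did, without WT 1, WT 3, WWv 2 or WWv 4 none did, and without any 1 of the other libraries 1 did. The medians of their changes were 0.54 with all libraries and 0.78 without WT 2. With library size only 1 of the 6 rose.

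Mcm2 stood at 33.4, 58.1, 31.2, 24.95 and 25.3 CPM in WT and at 50.4, 54.6, 51.3, 52.4 and 48.1 CPM in WWv. Mcm3 stood at 32.7, 58.2, 32.7, 27.5 and 27.4 CPM in WT and at 50.5, 56.8, 50.5, 55.1 and 53.1 CPM in WWv. Mcm4 stood at 44.8, 75.4, 46.5, 40.1 and 38.3 CPM in WT and at 64.9, 69.5, 63.3, 68.2 and 66.1 CPM in WWv. In all 3 genes WT 2 was the highest library of all, and WT 1, 3, 4 and 5 were below every WWv library. Mcm5 stood at 30.2, 55.7, 32.3, 29.3 and 27.5 CPM in WT and at 48.0, 54.6, 46.5, 51.9 and 48.3 CPM in WWv. Mcm6 (ENSMUSG00000026355.11, chromosome 1, 128331590 to 128359664) stood at 43.5, 81.7, 47.6, 42.7 and 45.5 CPM in WT and at 74.8, 86.4, 76.8, 79.6 and 78.1 CPM in WWv. Mcm7 stood at 37.9, 57.6, 40.04, 34.3 and 32.8 CPM in WT and at 44.98, 53.1, 48.3, 49.3 and 49.3 CPM in WWv. WT 2 was again the highest library for Mcm5 and Mcm7 and the second highest for Mcm6, whose promoter holds E2F matches at 2 places.

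Mcm6 had the largest change of the 6 (0.60 ± 0.16, adjusted p = 0.0205, and 0.82 without WT 2). Its call was lost without WT 1, WT 3, WWv 2 or WWv 4 (0.54 to 0.59, adjusted p 0.0519 to 0.0566). Mcm3 (0.58 ± 0.18, adjusted p = 0.0388) and Mcm5 (0.51 ± 0.17, adjusted p = 0.0482) lost their calls without any 1 library other than WT 2, at 0.49 to 0.59 and 0.43 to 0.53 (adjusted p 0.0596 to 0.0903 and 0.0748 to 0.112). Mcm2, Mcm4 and Mcm7 did not pass with all libraries (0.57, 0.44 and 0.27, with adjusted p 0.0562, 0.0621 and 0.15). Without WT 2 they rose by 0.84, 0.65 and 0.44.

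Among the 6 MCM transcripts the ends of the order were fixed. Per kilobase of exon Mcm4 was the highest and Mcm2 the lowest in each of the 10 libraries, from 10.67 to 21.01 CPM per kb for Mcm4 and from 3.59 to 8.35 CPM per kb for Mcm2. The ratio of the highest to the lowest subunit was 2.81 ± 0.249 in WT (SD, n = 5) and 2.51 ± 0.101 in WWv (n = 5), and the values overlapped (2.52 to 3.11 and 2.39 to 2.67). The exon length covers all annotated isoforms, 6956 bases for Mcm2 and 3589 for Mcm4, and a long rare isoform lowers a level per kilobase.

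**Figure D4:**
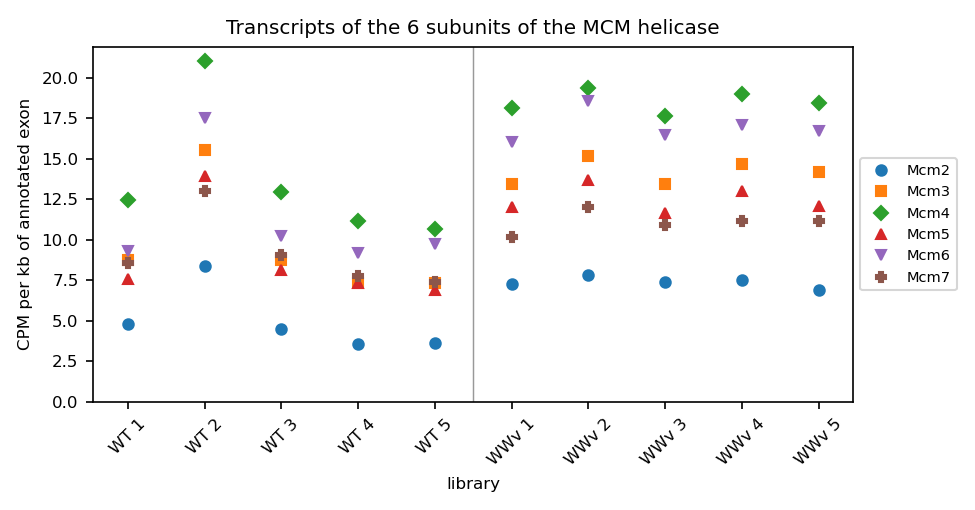
CPM per kilobase of annotated exon (y axis) of the 6 MCM subunit genes in each library (x axis, WT left and WWv right of the line). WT 2, with Mcm4 at 21.01 CPM per kb, resembles the WWv libraries more than the other WT libraries, and the order of Mcm4 first and Mcm2 last is the same in all 10.

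Of the 4 genes that activate the loaded ring 2 rose. Cdc45, which travels with the helicase (ENSMUSG00000000028.15, chromosome 16, 18780447 to 18811987), stood at 9.34, 13.1, 9.86, 8.93 and 8.41 CPM in WT and at 13.6, 15.4, 14.4, 13.6 and 15.4 CPM in WWv. The groups did not overlap (0.55 ± 0.11, adjusted p = 0.00584). Mcm10, which is needed to start unwinding, went from 10.2 ± 2.72 to 13.9 ± 0.318 CPM (0.44 ± 0.14, adjusted p = 0.0412) and lost its call without any 1 library other than WT 2 (0.36 to 0.45, adjusted p 0.0712 to 0.0939). The GINS subunit genes Gins1 (0.35, adjusted p = 0.139) and Gins2 (0.38, adjusted p = 0.102) passed without WT 2 (0.54 and 0.59). Gse1 on the opposite strand shares 67.32% of the Gins2 exon bases, so the Gins2 reads are uncertain.

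At the fork, Pcna, Fen1 and Pold1 rose. Pcna encodes the sliding clamp of the polymerases (ENSMUSG00000027342.14, chromosome 2, 132249162 to 132253314). It stood at 41.8, 58.2, 38.2, 37.04 and 37.97 CPM in WT and at 56.2, 59.5, 57.98, 60.6 and 62.2 CPM in WWv. WT 2 lay inside the WWv range and the other WT libraries lay below it (0.48 ± 0.11, adjusted p = 0.0118). Fen1, the nuclease that trims Okazaki fragments, stood at 15.6, 18.8, 14.7, 13.04 and 13.3 CPM in WT and at 19.8, 22.6, 21.1, 21.9 and 21.3 CPM in WWv, without overlap (0.50 ± 0.09, adjusted p = 0.00394). The antisense gene Gm10143 shares 78.82% of the Fen1 exon bases, so the Fen1 reads are uncertain. Pold1, the catalytic subunit of polymerase delta, went from 22.8 ± 5.03 to 29.97 ± 0.999 CPM (0.40 ± 0.12, adjusted p = 0.0309). Its call was lost without any 1 library other than WT 2 (0.34 to 0.40, adjusted p 0.0534 to 0.0831).

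Pole and Pola1, the catalytic subunits of polymerases epsilon and alpha, and Rfc4, a subunit of the clamp loader, did not pass with all libraries. Pole stood at 24.4, 43.4, 25.8, 23.6 and 22.4 CPM in WT and at 35.2, 38.7, 34.3, 36.6 and 36.9 CPM in WWv. WT 2 was above every WWv library and the other WT libraries were below them all (0.38 ± 0.16, adjusted p = 0.102, and 0.60, adjusted p = 2.93e-05, without WT 2). Pola1 showed the same order of libraries (0.46, adjusted p = 0.0601, and 0.68 without WT 2). Rfc4 changed by 0.34 (adjusted p = 0.201) with all libraries and by 0.55 without WT 2 (adjusted p = 0.00584).

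Both genes of ribonucleotide reductase, the enzyme that makes deoxynucleotides, rose. Rrm2, its S phase subunit (ENSMUSG00000020649.11, chromosome 12, 24708241 to 24714146), stood at 88.99, 154, 106, 80.7 and 86.3 CPM in WT and at 149, 162, 180, 157 and 142 CPM in WWv. Only WT 2 reached the WWv range (0.62 ± 0.16, adjusted p = 0.0165). Rrm1, the large subunit, went from 160 ± 34.6 to 209 ± 11.8 CPM (0.38 ± 0.12, adjusted p = 0.0374) and lost its call without any 1 library other than WT 2 (0.31 to 0.40, adjusted p 0.0539 to 0.0945). The thymidylate genes Tyms, a synthase (0.20, adjusted p = 0.192), and Tk1, a salvage kinase (0.22, adjusted p = 0.199), did not pass. Without WT 2 they changed by 0.31 and 0.37 (adjusted p = 0.00806 and 0.000467), still less than the 0.81 of Rrm2, though these differences between genes were not tested.

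The other genes of the pathway were taken from lists of 89 genes, and 36 of them rose and 1 fell (median log2 fold change 0.27). At the same threshold 12.8% of all tested genes were higher and 15.4% lower. Among 20 other G1/S regulators 7 rose, with Lin9 (0.55) and Lin54 (0.45), subunits of the MuvB complex that binds cell cycle promoters, E2f6, a repressor E2F (0.47), and Mybl2, which joins MuvB in S phase (0.49). Among 18 other origin genes 7 rose, with Ticrr, a factor for origin firing (0.57), Dtl, which marks CDT1 for destruction (0.55), Topbp1 (0.38) and Mtbp (0.36). At the fork 13 of 29 rose, with the checkpoint mediator gene Clspn (0.59), the single-strand binding gene Rpa2 (0.57), the PCNA-binding gene Pclaf (0.51) and the clamp loader gene Chtf18 (0.44). The 1 gene that fell was Rnaseh2c, a subunit of ribonuclease H2, named after its values were seen (−0.30, adjusted p = 0.025). It lost its call without WT 1, WWv 3 or WWv 4 (adjusted p 0.0598 to 0.0708).

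Of 12 nucleotide enzymes 3 rose, with Dck, deoxycytidine kinase (0.51), Umps (0.44) and Rrm2b, the p53-regulated reductase subunit (0.26). Of 10 genes that rebuild chromatin behind the fork 6 rose, with the CAF-1 genes Chaf1b (0.63) and Chaf1a (0.44), Hat1, a histone acetyltransferase (0.48), and Uhrf1, which carries DNA methylation across replication (0.46). Pclaf, Hat1 and Uhrf1 lost their calls without any 1 library other than WT 2 (highest adjusted p 0.088, 0.0989 and 0.0862). Mybl2 lost its call when WT 1, 3 or 4 or any 1 of WWv 2 to 4 was left out, Umps without any 1 of WWv 2 to 4, Chaf1b without WWv 2 or 4 and Chaf1a without WWv 4. The adjusted p in those fits reached 0.0622, 0.0613, 0.0562 and 0.0585. Of the 89 genes 66 rose without WT 2, in a fit where 22.7% of all tested genes were higher. The count was 22 without WT 1 (9.46% of tested genes higher), 21 without WT 3 (9.12%), 23 without WT 4 (9.56%) and 22 without WT 5 (9.86%). It was 28 without WWv 1 (11.7%), 20 without WWv 2 (8.34%), 23 without WWv 3 (8.56%), 17 without WWv 4 (8.35%) and 24 without WWv 5 (9.65%). With library size only 15 rose and 3 fell, where 6.48% of tested genes were higher.

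Mitosis genes, which act later in the cycle, were set beside these lists. Of 28 tested 6 rose and 1 fell, with a median of 0.23, while 12.8% of all tested genes were higher and 15.4% lower. The WT and WWv libraries overlapped in all 28. Among all tested genes 8.04% were higher and 7.81% lower without overlap. Cdk1, the mitotic kinase, rose by 0.45 (adjusted p = 0.00543), and Knl1, a kinetochore scaffold, by 0.47 (adjusted p = 0.015). Kif11, a spindle motor, rose by 0.40 and Top2a, which untangles sister DNA, by 0.35. Kif11 lost its call without WT 1 or 4 or any 1 of WWv 2 to 5 (highest adjusted p 0.0583), and Top2a without all of these and without WT 3 or WT 5 (0.0937). The 1 that fell was Cenpa, the centromeric histone (−0.33, adjusted p = 0.0273, named after its values were seen), and its call was lost without WT 1 or any 1 of WWv 1 to WWv 4. Without WT 2 there were 24 higher (22.7% of all tested genes). There were 3 without WT 1 or 4 or any 1 of WWv 2 to 5 (8.34% to 9.65% of tested genes). There were 4 without WT 3 or WT 5 (9.12% and 9.86%) and 8 without WWv 1 (11.7%). With library size only 3 were higher (6.48% of tested genes). The median change was thus 0.44 in the 39 replication and G1/S genes, 0.27 in the 89 other genes of the pathway and 0.23 in the mitosis genes. Without WT 2 these medians were 0.60, 0.39 and 0.37, so the 89 other genes lay nearer to the mitosis genes. The differences were not tested.

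**Figure D5:**
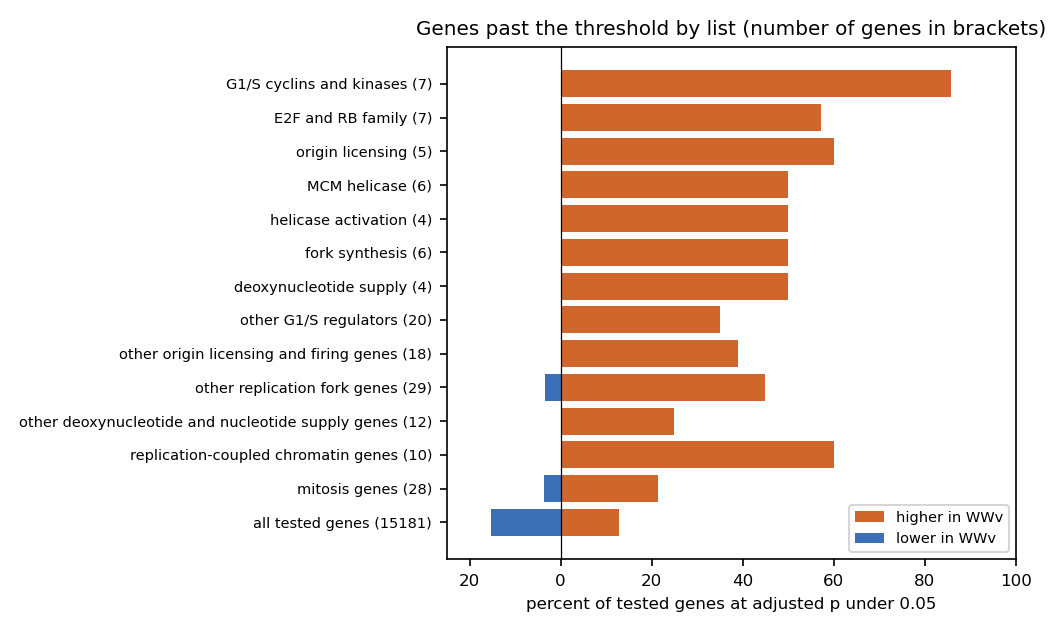
Percent of the tested genes of each list (x axis, right higher and left lower in WWv, adjusted p under 0.05, all libraries; number of genes in brackets). The top 7 bars are the roles of the 39 genes, with 6 of 7 cyclin and kinase genes higher, and the last bar gives all 15181 tested genes, with 12.8% higher and 15.4% lower.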

How the data were processed

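The authors deposited 1 table of unnormalised whole-number counts, with versioned Ensembl IDs as rows. Per the submitters' processing notes, bcl2fastq 2.17, Trim Galore 0.4.3, STAR 2.5.2a and build mm10 were used. The read counter, the strandedness it used and the gene models are not given in the sources used here, so genes that share exon bases with another gene, as 18 of the 39 do, are uncertain. Per the labels' protocols, an Omega EZNA kit gave the RNA and a Nugen kit (Universal Plus mRNA-Seq) the libraries. The labels do not tie each library to a mouse, so p-values measure the spread between libraries.

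Symbols and positions came from GENCODE M21 on GRCm38, the assembly of mm10, which matched 54409 of 54446 IDs. Near-identical copies of the members (at least 95% identity over 200 bases) were sought among its transcripts; the copies of Pcna, Rrm2, Mcm7, Cdc6, Ccnd3 and Cdk6 held at most 0.307% of the member's counts, while a repeat in Tyms is shared with expressed genes. Groups were compared in edgeR 4.0.16 (R 4.3.3) with the group as the only term, TMM scaling, filterByExpr at a minimum count of 10 and a two-sided quasi-likelihood test adjusted over all tested genes. The standard error is the absolute log2 fold change over the square root of F. CPM (counts per 1000000) used TMM-scaled totals and is given as mean ± SD of 5 libraries. In simulated WWv against WT data over 15505 genes, 56.7% of 1.5-fold and 100% of 2-fold changes were recovered, and 7 of 178 calls were false. The real data gave 4274 calls. For the genes described here the median coefficient of variation was 21.9% in WT, 7.45% in WT without WT 2 and 5.67% in WWv. Whether the simulated rates hold for genes with such a spread was not tested. The 45 pairs of libraries differed by more than sampling noise (smallest chi-square per degree of freedom 9.42). Alternatives were run with DESeq2 1.42.0, limma 3.58.1 and other scalings, filters and thresholds, with a replicate block, and without single libraries.

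All 39 members could be named. From each other list the rule named the up to 4 genes past the threshold with the largest change. The members and lists were chosen with earlier results of these data known.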

Additional observations from a re-analysis of the deposited data

Results flagged for a closer look

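In 20 of 78 groups of 5 values (39 genes in WT and in WWv) the highest or lowest library lay far from the others by Dixon's ratio, with a critical value of 0.71. Chance flags about 1 group in 20 when groups are independent. These groups were not, because the 39 genes were measured in the same libraries. All 20 flagged groups were WT groups in which WT 2 was the highest library, and no WWv group was among them. They thus show 1 library that stood apart, and the number of flags does not measure how often that happens. WT 2 had 27.02 CPM of Ccne1, 31.03 of Cdk6, 44.8 of E2f1, 26.1 of E2f7, 15.2 of E2f8 and 20.9 of Rbl1. In the MCM genes it had 58.1 CPM of Mcm2, 58.2 of Mcm3, 75.4 of Mcm4, 55.7 of Mcm5, 81.7 of Mcm6 and 14.98 of Mcm10. Of the GINS genes it had 3.99 CPM of Gins1 and 30.3 of Gins2. At the fork it had 58.2 CPM of Pcna, 25.4 of Pola1, 31.5 of Pold1 and 43.4 of Pole. In nucleotide supply it had 219.8 CPM of Rrm1 and 30.4 of Tk1.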

How the results depend on the processing

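None of the 39 genes fell in any fit. The genes that rose numbered 23 with all libraries and 15 to 37 when 1 library was left out. They numbered 14 with library size only and 37 by limma-voom with sample quality weights (which gave WT 2 a weight of 0.181). They numbered 36 without WT 2 and WWv 1 together and 12 at an adjusted p under 0.01. The share of all tested genes that were higher moved too, from 12.8% with all libraries to 8.34% to 22.7% when 1 library was left out. It was 6.48% with library size only, 23.7% with quality weights and 21.9% without WT 2 and WWv 1. At 0.01, 839 of 15181 tested genes were higher. The median change of the 39 genes, 0.44 with all libraries, was 0.37 to 0.60 without single libraries, 0.58 with quality weights and 0.61 without WT 2 and WWv 1. Of the 89 other genes of the pathway, 36 rose, with 17 to 66 under leave-one-out, 15 with library size only, 65 with quality weights, 63 without WT 2 and WWv 1 and 11 at 0.01. The 1 that fell became 0 to 2 under leave-one-out, 3 with library size only, 0 without the low-count filter or at 0.01, and 2 with the upper quartile, with 1 CPM in 5 libraries, by DESeq2, with quality weights, without WT 2 and WWv 1, or at 0.1. The all genes called, 4274, were 3013 to 7127 under leave-one-out, 7401 with quality weights, 7111 without WT 2 and WWv 1 and 1827 at 0.01. The Cdk4 log2 fold change was −0.11 to 0.03 under leave-one-out and turned positive, to 0.03, without WT 2. In the 250 bases before the start alone, E2F matches were in 32.3% of members and 2.7% of coding genes. The cause of these shifts was not tested. With the replicate number as a block 27 members rose and 3636 genes were called, with 11.2% of tested genes higher. Deviations of libraries with the same number correlated between −0.092 and 0.308, so the numbers were not taken as pairs. In that check 1 of 5 libraries correlated best with its own number.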

Other observations

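The CDK inhibitors, which restrain the kinases described above, moved in both directions: 4 of 7 rose and 1 fell in WWv, and with library size only 1 rose (Cdkn2b) and 1 fell (Cdkn1b). With TMM scaling 12.8% of all tested genes were higher and 15.4% lower. With library size only 983 of 15181 tested genes were higher and 3599 lower. Cdkn2b, which encodes the CDK4 and CDK6 inhibitor p15, stood at 27.8, 17.2, 23.1, 29.2 and 30.9 CPM in WT and at 40.9, 39.6, 38.5, 39.5 and 42.2 CPM in WWv. The groups did not overlap, with WT 2 the lowest (log2 fold change 0.65 ± 0.13, edgeR adjusted p = 0.00579). Cdkn1a, which encodes p21, rose by 0.30 ± 0.07 (adjusted p = 0.0101), also without overlap, and did not pass with library size only (0.22, adjusted p = 0.0592). Cdkn1b, which encodes p27, the inhibitor of cyclin E with CDK2, fell by 0.38 on the log2 scale (adjusted p = 0.0248), from 49.7 ± 8.47 to 38.1 ± 2.85 CPM, with WT 2 at 37.3 CPM inside the WWv range. Its call was lost without WT 1, WT 4, WT 5, WWv 2 or WWv 3 (adjusted p 0.0506 to 0.0571). Cdkn2a rose by 0.35 (adjusted p = 0.0353) and lost its call without 7 of the single libraries (WT 3 to 5 and WWv 1, 2, 4 and 5).

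Proportions between partners within a library, formed with the values known and not tested, differed for some pairs. Per kilobase of exon Cdk4 exceeded Cdk6 by 34.1, 26.3, 32.1, 29.6 and 33.7 times in WT and by 20.04, 16.1, 20.9, 18.6 and 16.5 times in WWv, without overlap and with WT 2 on the side of the other WT libraries. Ccnd2 exceeded Ccnd3 by 9.94 to 13.6 times in WT, with WT 2 the lowest, and by 13.7 to 15.5 times in WWv. Rrm1 over Rrm2 was 0.359 to 0.432 in WT and 0.312 to 0.349 in WWv. Gmnn over Cdt1, inhibitor over target, was 1.35 to 2.01 in WT and 1.12 to 1.38 in WWv, with overlap.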
